A study of Mus musculus with 9 samples.

Results

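The genes described here are 40 mouse genes that give the epithelium of the uterus its identity and hold its cells together, listed by name, with earlier results of these data known: transcription factors, splicing regulators, adhesion molecules, claudins and other tight junction proteins, desmosome proteins, and surface, sorting and polarity proteins. All 40 were among the 18094 genes of the deposited table, and all 40 passed the low-count filter that left 15186 genes for testing. The RNA came from whole uteri of female mice aged 13 weeks, with 3 libraries in each of 3 groups. Tamoxifen+primidone mice received tamoxifen at 1 mg/kg on days 1 to 5 after birth and, from week 10, 3 weeks of daily intraperitoneal primidone at 2 mg/kg. Tamoxifen mice received the same neonatal tamoxifen and later only vehicle, and control mice received the solvent as newborns and vehicle as adults. Neonatal tamoxifen, a selective estrogen receptor modulator, is used in mice as a model of adenomyosis, the growth of endometrial tissue within the uterine muscle; primidone is an anticonvulsant. No group received primidone without tamoxifen, so a difference between the tamoxifen+primidone and control groups covers both agents. The sources used here give neither the strain nor the stage of the estrous cycle, and no histology of these uteri.

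Uterine glands and the uterine lumen are lined by a simple layer of polarised cells. Tight junctions, built from claudins and occludin on a scaffold of zonula occludens proteins, seal the space between neighbouring cells near the apical side, while adherens junctions and desmosomes join the cells mechanically to each other and to their actin and keratin filaments. Grainyhead-like and ETS-family factors are known to activate many of these genes in epithelia, and the Zeb, Snail and Twist factors are known to repress them, in part through E-boxes such as CAGGTG.

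Upstream sequence was looked at because these genes are known targets of shared factors. Of the 40 genes, 25 had at least 1 entry in the RefSeq promoter table (build GRCm38.p6, not the build of the counts), with 35 start sites in all, and the 250 bases before each start site were searched on both strands. CAGGTG, which reads CACCTG on the other strand, was present for 14 of the 25 genes (56%), against 19.4% of all 27025 genes in that table. Example windows are printed 5′ to 3′ on the strand of the gene, with CAGGTG or CACCTG in capitals. Elf3 was the most abundant of the 40 and the gene with the lowest adjusted p among them. Cldn4, which passed the test, is printed beside its neighbour Cldn3, which holds no match. Epcam and Ap1m2, which holds 4 matches, are printed as well. Cldn4 and Cldn3 fell alike in tamoxifen+primidone against control uteri, with log2 fold changes of -0.31 and -0.31 (edgeR adjusted p = 0.0465 and 0.0631). Whether a match goes with a fall was not tested. No window was searched for Esrp1, Marveld3 and Dsg2, which also passed the test.
Elf3 (chr1:135258473-135258722, minus strand): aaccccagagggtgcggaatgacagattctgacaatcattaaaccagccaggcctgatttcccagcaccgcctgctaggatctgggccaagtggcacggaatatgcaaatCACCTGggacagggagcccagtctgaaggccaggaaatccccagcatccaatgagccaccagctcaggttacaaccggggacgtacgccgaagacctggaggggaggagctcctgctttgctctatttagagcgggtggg
Cldn4 (chr5:134946935-134947184, minus strand): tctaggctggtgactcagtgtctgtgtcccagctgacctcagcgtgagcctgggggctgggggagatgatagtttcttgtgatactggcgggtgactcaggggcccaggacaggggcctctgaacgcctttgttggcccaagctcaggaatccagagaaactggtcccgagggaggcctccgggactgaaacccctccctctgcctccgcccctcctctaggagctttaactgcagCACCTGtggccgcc
Cldn3 (chr5:134985964-134986213, plus strand): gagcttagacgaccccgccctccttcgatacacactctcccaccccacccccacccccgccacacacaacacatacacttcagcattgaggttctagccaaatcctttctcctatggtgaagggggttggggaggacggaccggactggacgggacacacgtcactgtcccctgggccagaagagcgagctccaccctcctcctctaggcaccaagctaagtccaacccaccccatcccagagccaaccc
Epcam (chr17:87635729-87635978, plus strand): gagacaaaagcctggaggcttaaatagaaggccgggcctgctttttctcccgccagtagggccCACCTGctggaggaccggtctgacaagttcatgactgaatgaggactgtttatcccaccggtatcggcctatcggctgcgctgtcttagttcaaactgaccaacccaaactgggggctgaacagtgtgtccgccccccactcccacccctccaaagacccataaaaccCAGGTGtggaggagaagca
Ap1m2 (chr9:21312334-21312583, minus strand): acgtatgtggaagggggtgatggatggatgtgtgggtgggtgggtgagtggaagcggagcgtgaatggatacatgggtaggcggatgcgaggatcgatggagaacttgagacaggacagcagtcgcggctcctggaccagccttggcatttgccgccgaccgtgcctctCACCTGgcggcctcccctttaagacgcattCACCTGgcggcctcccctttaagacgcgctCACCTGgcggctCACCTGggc
The match in the Elf3 window begins 140 bases before the start site, and that in the Cldn4 window 14 bases before it. The Epcam matches begin 187 and 19 bases before the start site, and those of Ap1m2 81, 51, 21 and 9 bases before it. The grainyhead motif AACNNGTT was found for 3 of the 25 genes (12%), Cgn, Prom1 and Rab25, against 4.11% of all genes, and its stricter form AACCGGTT for 0 of 25, against 0.137%. The ETS motif CCGGAAGT was found for Cldn7, Crb3 and Lsr (12%, against 3.23%), and GGAAGT, which lies inside it, for 7 genes (28%, against 22.2%). A match describes letters in a window and not a bound site.

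With libraries scaled to their size by TMM, 36 of the 40 genes had a lower fitted level in tamoxifen+primidone uteri than in control uteri, against 48.3% of all tested genes. When libraries were scaled to 4 epithelial keratins, 9 of 40 did, and the median log2 fold change was 0.08, beside 0.37 for all tested genes. In the TMM fit 5 of the 40 fell past the threshold, an adjusted p of 0.05: Elf3, Esrp1, Cldn4, Marveld3 and Dsg2. None of the 40 rose past it in that comparison, in which 5.35% of all tested genes were called, 3.21% as lower and 2.14% as higher. The falls were modest, from 0.665 of the control level for Elf3 to 0.804 for Cldn4. In the comparison of tamoxifen+primidone with tamoxifen uteri 32 of the 40 were negative, against 47.2% of all tested genes, and 0 passed, where 0.0132% of all tested genes did. Between tamoxifen and control uteri 24 were negative, against 50% of all tested genes, and 0 passed, where 1.53% of all tested genes did, 0.961% as lower and 0.573% as higher. These counts come from edgeR's quasi-likelihood test with Benjamini-Hochberg adjustment over all 15186 genes, and the 3 comparisons share groups, so they are not independent of each other.

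Counted without adjustment, at p under 0.05, 23 of the 40 were lower and 0 higher in tamoxifen+primidone than in control uteri, where 11.9% of all tested genes were lower and 11.3% higher at that level. Against tamoxifen uteri, 18 were lower and 1, Cldn10, was higher, with 7.51% and 6.3% of all tested genes. Between tamoxifen and control uteri 9 were lower and 3 higher, with 8.95% and 8.82% of all tested genes. DESeq2 called 12 of the 40 against control, 9 against tamoxifen and 3 between tamoxifen and control, beside 10.4%, 3.22% and 6.15% of all 18086 genes it tested, so the last count is near the share of all genes. No low-count filter was set before DESeq2, so the 18086 include genes with few counts that edgeR's filter left out. That can lower these shares. The median log2 fold change of the 40 was -0.28 for tamoxifen+primidone against control, beside 0.01 for all tested genes, and -0.23 against tamoxifen, beside 0.02. For tamoxifen against control it was -0.06, beside 0.000184 for all tested genes.

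In every tamoxifen+primidone library the median of the 40 genes lay below the control mean, though not every gene did. The median of the 40 genes, on the log2(CPM + 0.5) scale (CPM are counts per 1000000 of TMM-scaled library size) relative to the mean of the control libraries, was -0.28, -0.27 and -0.28 in the tamoxifen+primidone libraries. The tamoxifen libraries were at -0.105, -0.04 and 0.00175, and the control libraries themselves at -0.04, 0.07 and -0.04. Of the 40 genes, 33, 33 and 37 were below the control mean in the tamoxifen+primidone libraries and 25, 22 and 20 in the tamoxifen libraries. In the control libraries themselves 32, 7 and 25 were. Over all tested genes that share was 49.3% to 50.9% in the 9 libraries. The lowest of the 9 libraries was a tamoxifen+primidone library for 33 of the 40 genes, a tamoxifen library for 5 and a control library for 2, Grhl1 and Cldn8. Over all tested genes those shares were 36.8%, 30.8% and 32.4%. For 13 genes all 3 tamoxifen+primidone libraries lay below all 6 others, against 4.55% of all tested genes: Elf3, Esrp1, Cldn3, Cldn4, Tjp3, Marveld3, F11r, Dsp, Dsg2, Dsc2, Pkp2, Cdcp1 and Ap1m2.

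**Figure D1:**
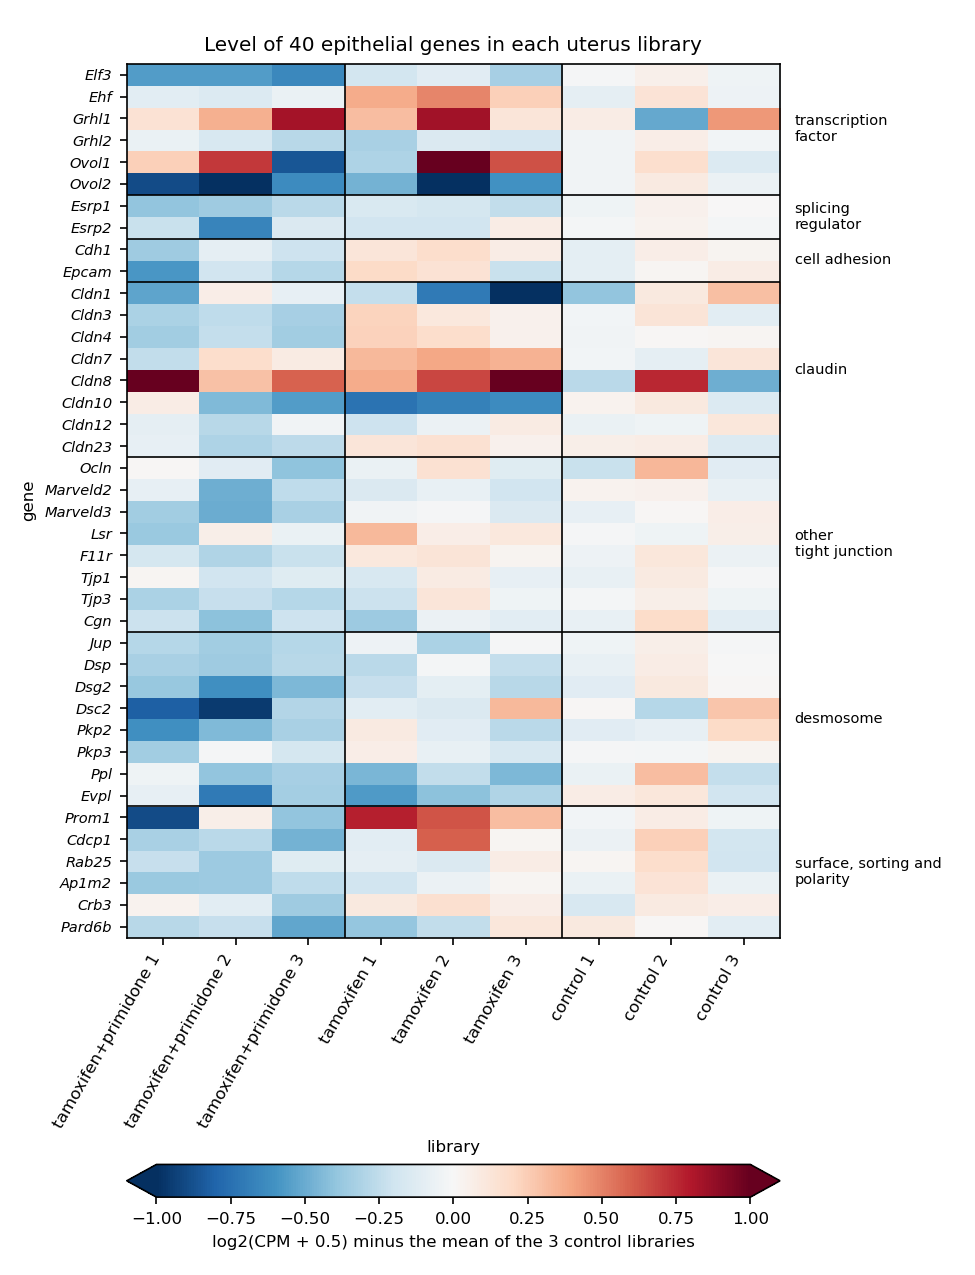
Level of each of the 40 genes in each library, as log2(CPM + 0.5) minus the mean of the 3 control libraries (colour, blue lower and red higher, cut at 1 either way), grouped by role. The 3 tamoxifen+primidone columns are mostly blue, with library medians of -0.28, -0.27 and -0.28. With keratin scaling the median log2 fold change of the 40 against control was 0.08, beside 0.37 for all tested genes.

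The direction depends on what the libraries are scaled to. With TMM scaling 36 of the 40 log2 fold changes of tamoxifen+primidone against control were negative, and 9 of 40 were when libraries were scaled to the 4 keratins of simple epithelium, Krt7, Krt8, Krt18 and Krt19. The 4 keratins, the intermediate filament proteins to which desmosomes attach, summed to 2077 to 2619 CPM in tamoxifen+primidone libraries, 2843 to 3168 CPM in tamoxifen libraries and 2858 to 3180 CPM in control libraries. Their median log2 fold change was -0.32 for tamoxifen+primidone against control, and 0 of the 4 passed the test. Keratin scaling raised the median of all tested genes to 0.37 in that comparison, and the 40 genes then had a median of 0.08, below that of all genes. The keratins themselves had a median of 0.03, near 0 by construction, and the 40 were not tested against them as a set. None of the 5 genes kept its call: Elf3 was at -0.23 ± 0.15 (SE) with an adjusted p of 0.22, Dsg2 at -0.12 ± 0.14 and Esrp1 at 0.01 ± 0.11. Cldn7 alone of the 40 passed, as higher, at 0.35 ± 0.11 with an adjusted p of 0.0306, in a fit that called 29.4% of all tested genes higher and 1.06% lower. In bulk tissue, fewer cells of a type and less RNA per cell cannot be told apart.

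**Figure D2:**
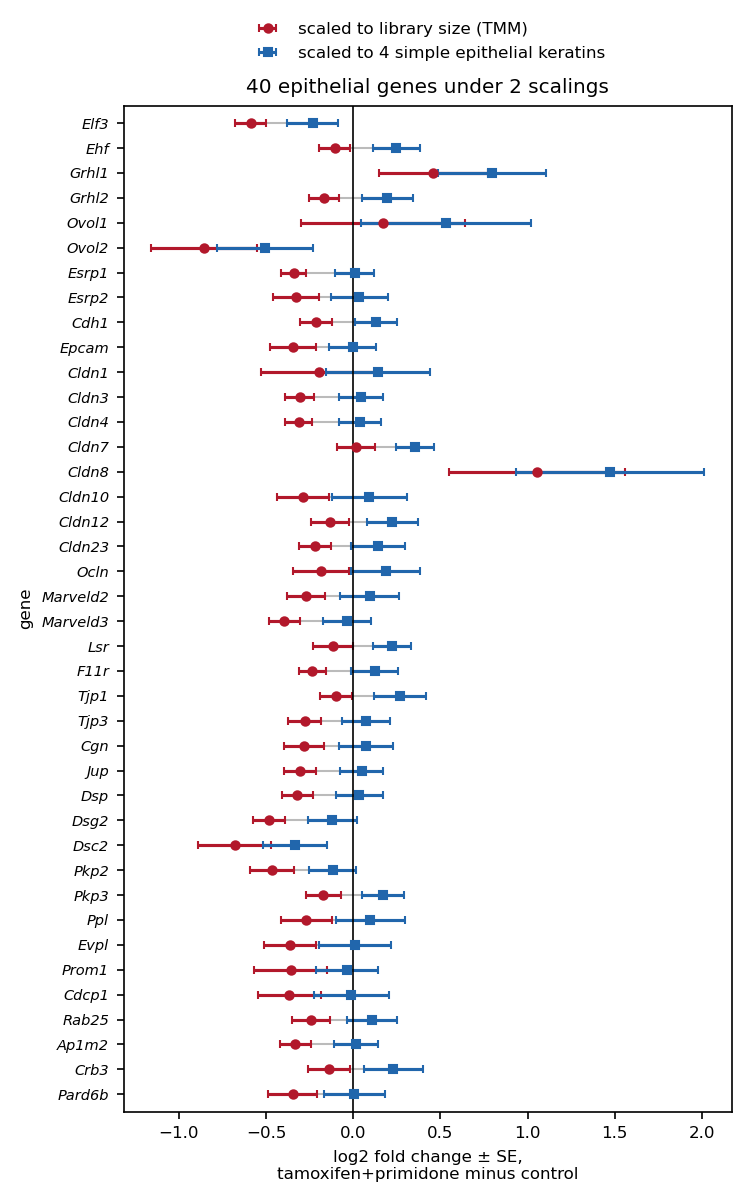
Log2 fold change ± SE of the 40 genes for tamoxifen+primidone minus control, from edgeR with libraries scaled to their size by TMM (red circles) and to 4 simple epithelial keratins (blue squares). The median moved to 0.08 with keratin scaling, against -0.28 with TMM, and genes with negative values to 9, against 36.

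Among the transcription factors, Elf3, an ETS-family factor of simple epithelia, passed the test, and the other 5 did not. Elf3 had 732, 733 and 691 CPM in the tamoxifen+primidone libraries, 954, 1002 and 859.7 CPM in the tamoxifen libraries and 1073, 1121 and 1050 CPM in the control libraries. All tamoxifen+primidone libraries were below all others and all tamoxifen libraries below all control libraries. The log2 fold change was -0.59 ± 0.09 (SE) against control (adjusted p = 0.00923), -0.38 ± 0.09 against tamoxifen (adjusted p = 0.13) and -0.20 ± 0.09 for tamoxifen against control (adjusted p = 0.264). Per unit of length Elf3 was the most abundant of the 40, at 372 ± 17.7 FPKM in tamoxifen+primidone, 462 ± 38.5 in tamoxifen and 531 ± 25.4 in control uteri (mean ± SD, n = 3 each).

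Its relative Ehf, another epithelial ETS factor, followed a different course. Ehf had 122, 119.6 and 126 CPM in tamoxifen+primidone uteri, against 170.5, 185 and 155 CPM in tamoxifen uteri and 124, 145 and 127 CPM in control uteri. The tamoxifen libraries were the highest, above every library of both other groups, which overlapped. The test of any difference among the 3 groups called it (adjusted p = 0.0339), as it did Elf3, Cldn3, Cldn4 and Dsg2, with 3.84% of all tested genes called. Its pairwise log2 fold changes were -0.11 ± 0.09 (SE) for tamoxifen+primidone against control, -0.47 ± 0.09 against tamoxifen (adjusted p = 0.0865) and 0.37 ± 0.09 for tamoxifen against control (adjusted p = 0.0769), none past the threshold.

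Grhl2, the grainyhead-like factor that is known to activate Cdh1 and claudin genes, had 64.9, 60.7 and 55.9 CPM in the tamoxifen+primidone libraries, 54.1, 61.3 and 60.3 CPM in the tamoxifen libraries and 66.3, 71 and 66.4 CPM in the control libraries. Both tamoxifen-treated groups lay below the control libraries, at -0.17 ± 0.08 (SE) on the log2 scale with primidone and -0.21 ± 0.08 without, and neither passed (adjusted p = 0.27 and 0.225). Ovol2, a zinc-finger factor known to repress Zeb1, had 15.8, 14.6 and 19 CPM in the tamoxifen+primidone libraries, 21.4, 7.92 and 19.4 CPM in the tamoxifen libraries and 29.1, 31.7 and 28.6 CPM in the control libraries. All 6 libraries of tamoxifen-treated mice were below the control libraries, and the tamoxifen group had the widest spread, with 1 library at 7.92 CPM. The log2 fold change was -0.86 ± 0.30 (SE) for tamoxifen+primidone against control (adjusted p = 0.131) and -0.88 ± 0.30 for tamoxifen against control (adjusted p = 0.176), the most negative of the 40 in both, and not past the threshold. Grhl1 and Ovol1, with at most 15.2 CPM in any library, overlapped in all comparisons.

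Esrp1 and Esrp2 encode RNA-binding proteins that direct epithelial splicing of transcripts such as Fgfr2 and Cd44. Esrp1 had 112, 115 and 122 CPM in the tamoxifen+primidone libraries, 133, 130.4 and 124 CPM in the tamoxifen libraries and 143, 152 and 147 CPM in the control libraries. The 3 groups did not overlap, with the tamoxifen libraries between the other two. Esrp1 fell against control with a log2 fold change of -0.34 ± 0.07 (SE; adjusted p = 0.0253), to 0.789 of the control level, while the differences of -0.15 ± 0.07 from tamoxifen and -0.19 ± 0.07 between tamoxifen and control did not pass (adjusted p = 0.384 and 0.189). Esrp2 had a similar log2 fold change against control, -0.33 ± 0.13 (SE), with 3 libraries below the 3 control libraries, but wider spread, and did not pass (adjusted p = 0.169).

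**Figure D3:**
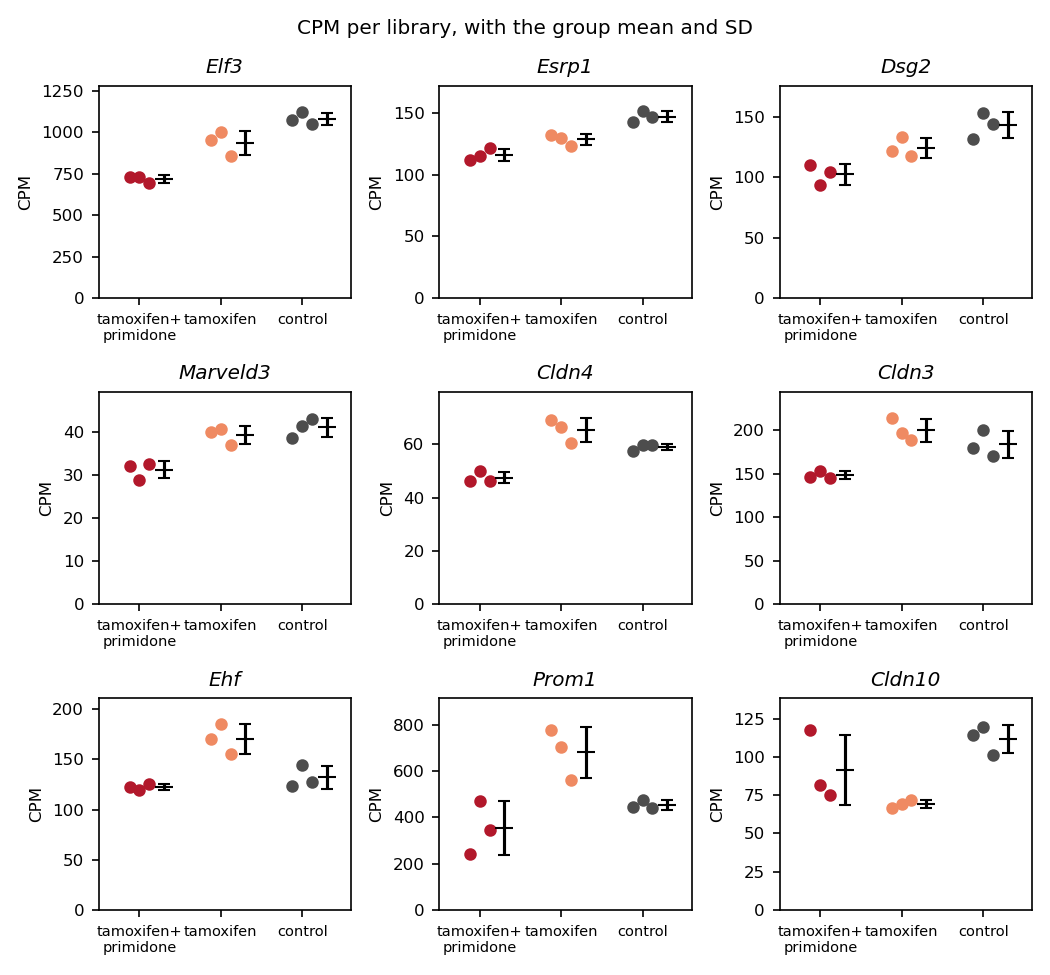
CPM in each library (points) for 9 of the genes, with the group mean and SD (bars, n = 3), tamoxifen+primidone left, tamoxifen middle, control right. Elf3, Esrp1, Dsg2, Marveld3 and Cldn4 passed the test against control with TMM scaling and not with keratin scaling; Ehf and Prom1 were highest in the tamoxifen libraries, and Cldn10 was lowest there.

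Cdh1, E-cadherin, is the adhesion molecule of epithelial adherens junctions, and Epcam encodes an epithelial surface protein that binds claudin-7. Cdh1 had 425, 511 and 473 CPM in the tamoxifen+primidone libraries, 591, 615 and 574 CPM in the tamoxifen libraries and 509, 571 and 556 CPM in the control libraries. The tamoxifen libraries were the highest, all above all control libraries, while the tamoxifen+primidone range just reached the control range. The log2 fold change was -0.22 ± 0.09 (SE) against control and -0.34 ± 0.09 against tamoxifen (adjusted p = 0.193 and 0.177). Epcam had 302, 396 and 371 CPM in the tamoxifen+primidone libraries, 517, 498 and 388 CPM in the tamoxifen libraries and 423, 458 and 477 CPM in the control libraries. The tamoxifen+primidone libraries were all below the control libraries and overlapped the tamoxifen libraries, at -0.34 ± 0.13 (SE) and -0.39 ± 0.13 (adjusted p = 0.151 and 0.232). Neither gene passed in any comparison with edgeR.

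The 8 claudins among the 40, the membrane proteins that set the permeability of tight junctions, did not move alike. With FPKM, which are per unit of length, the order of the group means over all libraries was Cldn7 (172), Cldn3 (140.1), Cldn10 (65.4), Cldn4 (31.6), Cldn23 (29.7), Cldn12 (7.2), Cldn1 (2.67) and Cldn8 (1.52). In every group the ranges of Cldn4 and Cldn23 lay close together: 27.1 ± 1.29 and 27.1 ± 2.61 FPKM in tamoxifen+primidone uteri, 35.6 ± 2.38 and 32.2 ± 1.44 in tamoxifen uteri, and 32 ± 0.882 and 29.9 ± 2.78 in control uteri (mean ± SD, n = 3 each). Together the 8 made up 91.3% to 93.4% of the summed FPKM of the 19 claudin genes in the table.

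Cldn4 had 46.3, 49.9 and 46.3 CPM in the tamoxifen+primidone libraries, 69.3, 66.6 and 60.6 CPM in the tamoxifen libraries and 57.6, 59.6 and 59.9 CPM in the control libraries. No tamoxifen+primidone library reached any other library, and every tamoxifen library was above every control library. Cldn4 fell against control with a log2 fold change of -0.31 ± 0.08 (SE; adjusted p = 0.0465). Against tamoxifen it was -0.46 ± 0.08, the smallest adjusted p of the 40 in that comparison (0.0693). The call against control was the least stable of the 5: it was lost when any of the 9 libraries but the tamoxifen library 3 was left out, with an upper-quartile scaling, with FPKM and without the low-count filter. Cldn3 lies next to Cldn4, with start sites 39280 bases apart on chromosome 5 in GRCm38.p6. Cldn3 had 147, 154 and 145 CPM in the tamoxifen+primidone libraries, 214, 197 and 189 CPM in the tamoxifen libraries and 179.8, 200.4 and 171 CPM in the control libraries. Its tamoxifen+primidone libraries too were below all others, at -0.31 ± 0.08 (SE) against control and -0.43 ± 0.08 against tamoxifen (adjusted p = 0.0631 and 0.0936).

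Cldn7, the most abundant claudin, had 192, 257 and 241 CPM in the tamoxifen+primidone libraries, 286, 297 and 289 CPM in the tamoxifen libraries and 223, 214 and 247 CPM in the control libraries. The tamoxifen libraries were above all others, and the other two groups overlapped, with log2 fold changes of 0.01 ± 0.11 (SE) for tamoxifen+primidone against control, -0.34 ± 0.11 against tamoxifen and 0.35 ± 0.11 for tamoxifen against control (adjusted p = 0.956, 0.219 and 0.134). Its share of all claudin FPKM was 36.1% ± 5.08 in tamoxifen+primidone, 37.8% ± 1.22 in tamoxifen and 31.8% ± 3.04 in control uteri (SD, n = 3 each). Cldn10, which forms ion-selective channels, ran the other way. Cldn10 had 117, 81.7 and 75.2 CPM in the tamoxifen+primidone libraries, 66.6, 69.3 and 71.8 CPM in the tamoxifen libraries and 114, 119 and 101 CPM in the control libraries. All tamoxifen libraries were below the libraries of both other groups, and the tamoxifen+primidone libraries spread across most of the range between them, with 1 among the control values. The difference between tamoxifen and control, -0.69 ± 0.15 (SE), had the smallest adjusted p of the 40 in that comparison, 0.0518, just short of the threshold; it passed without tamoxifen+primidone library 1 or 3 in the fit, without the low-count filter, in a fit of those 6 libraries alone, and with DESeq2. Tamoxifen+primidone against tamoxifen gave 0.40 ± 0.15 (adjusted p = 0.279).

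Of the other claudins, Cldn23 was lower than in tamoxifen uteri in all 3 tamoxifen+primidone libraries, at -0.32 ± 0.09 (SE; adjusted p = 0.181), and Cldn12 overlapped in all comparisons. Cldn1 and Cldn8 had few counts, with 3.30 to 12.9 CPM and 1.32 to 8.02 CPM over the 9 libraries, and standard errors of 0.33 to 0.34 and 0.50 on the log2 scale. Cldn2, a pore-forming claudin that is not among the 40, gave the most negative log2 fold change of the further tight junction genes. Cldn2 had 7.47, 2.94 and 6.69 CPM in the tamoxifen+primidone libraries, 36.1, 12.7 and 27.2 CPM in the tamoxifen libraries and 24.4, 26.3 and 21.9 CPM in the control libraries. It fell by 2.09 ± 0.42 (SE) on the log2 scale against control (adjusted p = 0.0305), and did not pass against tamoxifen, where 1 of the 3 libraries was at 12.7 CPM (adjusted p = 0.11).

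**Figure D4:**
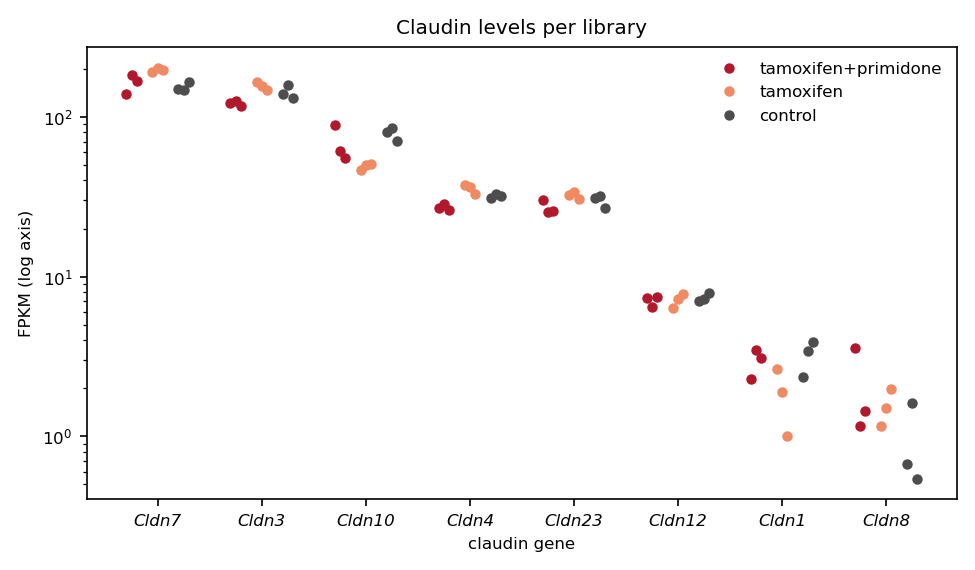
FPKM of the 8 claudins in each library, on a log axis, tamoxifen+primidone left, tamoxifen middle and control right within each gene. Cldn7 and Cldn3 lead in all groups, Cldn10 is lowest in the tamoxifen libraries, and Cldn1 and Cldn8 stay under 4 FPKM.

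The other tight junction proteins were all on the negative side against control with TMM scaling, 8 of 8 with a median of -0.25. With keratin scaling 1 of 8 was negative and the median was 0.11, beside 0.37 for all tested genes. Marveld3, a tight junction membrane protein related to occludin, passed. Marveld3 had 32.1, 28.9 and 32.6 CPM in the tamoxifen+primidone libraries, 40, 40.7 and 36.9 CPM in the tamoxifen libraries and 38.6, 41.4 and 43 CPM in the control libraries. All tamoxifen+primidone libraries were below all others, while tamoxifen and control libraries overlapped. Marveld3 fell by 0.39 ± 0.09 (SE) on the log2 scale against control (adjusted p = 0.0336), and its -0.33 ± 0.09 against tamoxifen did not pass (adjusted p = 0.169).

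Occludin itself, Ocln, had 37.7, 34.5 and 28.2 CPM in the tamoxifen+primidone libraries, 35.7, 41.6 and 34.4 CPM in the tamoxifen libraries and 32.1, 47.4 and 34.6 CPM in the control libraries. The groups overlapped in every comparison, and control library 2 was the highest of the 9. Tjp1, the scaffold protein ZO-1, had 169, 146 and 153 CPM in the tamoxifen+primidone libraries, 149, 176 and 158 CPM in the tamoxifen libraries and 158, 177 and 165 CPM in the control libraries. Its groups overlapped as well, with -0.10 ± 0.09 (SE) against control, the difference nearest to 0 of these 8 genes (adjusted p = 0.565). Lsr, which marks the corners where 3 cells meet and recruits tricellulin there, had 102, 138 and 126 CPM in the tamoxifen+primidone libraries, 166, 139 and 143 CPM in the tamoxifen libraries and 131, 128 and 138 CPM in the control libraries. All its tamoxifen libraries were above the others, and tamoxifen+primidone against tamoxifen gave -0.29 ± 0.11 (SE; adjusted p = 0.301). The remaining 4 were Marveld2 (tricellulin), F11r (junctional adhesion molecule A), Tjp3 (ZO-3) and Cgn (cingulin, a cytoplasmic linker). All 4 had tamoxifen+primidone ranges below the control ranges, from -0.23 for F11r to -0.28 for Cgn on the log2 scale, with adjusted p from 0.107 to 0.166.

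All 8 desmosome genes were on the negative side against control with TMM scaling, with a median of -0.34. With keratin scaling 3 of 8 were negative and the median was 0.02, beside 0.37 for all tested genes. Dsg2, a desmosomal cadherin of simple epithelia, had 109.9, 93.4 and 104 CPM in the tamoxifen+primidone libraries, 122, 133 and 118 CPM in the tamoxifen libraries and 132, 153 and 144 CPM in the control libraries. All tamoxifen+primidone libraries were below all others, and the tamoxifen range just reached the control range. Dsg2 fell by 0.48 ± 0.09 (SE) on the log2 scale against control (adjusted p = 0.0202), to 0.716 of its level, and gave -0.28 ± 0.09 against tamoxifen (adjusted p = 0.22). Its partner cadherin Dsc2 had a larger fitted difference, -0.68 ± 0.21 (SE) against control and -0.70 ± 0.21 against tamoxifen, but varied more within groups, with a coefficient of variation of 21.5%, against 7.41% for Dsg2 (adjusted p = 0.0913 and 0.205).

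Dsp, desmoplakin, which ties desmosomes to keratin filaments, had 249, 243 and 256 CPM in the tamoxifen+primidone libraries, 257, 307 and 264 CPM in the tamoxifen libraries and 296, 328 and 311 CPM in the control libraries. Every tamoxifen+primidone library was below every other library, at -0.32 ± 0.09 (SE) against control (adjusted p = 0.0621). Jup, plakoglobin, which sits in both adherens junctions and desmosomes, had 228, 218 and 229 CPM in the tamoxifen+primidone libraries, 269.5, 224 and 276 CPM in the tamoxifen libraries and 269.9, 290.2 and 276 CPM in the control libraries. Tamoxifen+primidone libraries were below the control libraries, at -0.31 ± 0.09 (SE; adjusted p = 0.0775), and tamoxifen library 2 lay among them. Evpl, envoplakin, a linker best known from stratified epithelia, had 89.4, 57.9 and 74.5 CPM in the tamoxifen+primidone libraries, 63.8, 71 and 76.7 CPM in the tamoxifen libraries and 99.8, 103 and 82.7 CPM in the control libraries. It was lower in tamoxifen than in control uteri in all libraries, -0.43 ± 0.15 (SE; adjusted p = 0.175), as was its partner Ppl, periplakin, -0.40 ± 0.15 (adjusted p = 0.188), and the tamoxifen+primidone libraries of both genes overlapped both other groups. The plakophilins Pkp2 and Pkp3, plaque proteins of desmosomes, were at -0.47 ± 0.13 and -0.17 ± 0.10 (SE) against control (adjusted p = 0.0621 and 0.328).

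**Figure D5:**
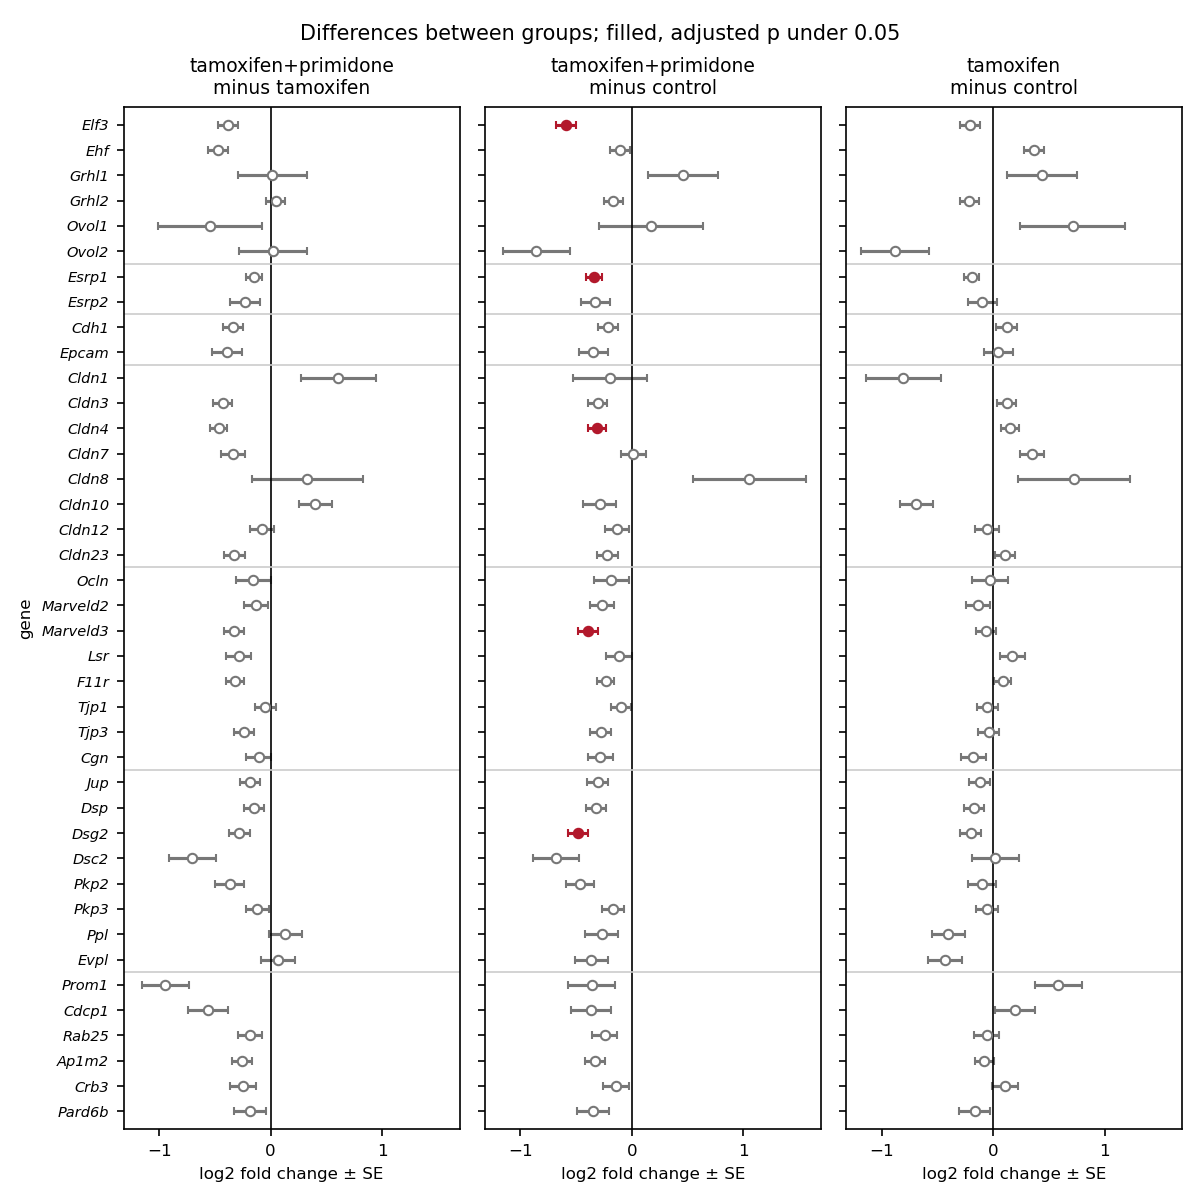
Log2 fold change ± SE of the 40 genes in the 3 comparisons, from edgeR with TMM scaling, grouped by role; filled red points have an adjusted p under 0.05. The 5 filled points, Elf3, Esrp1, Cldn4, Marveld3 and Dsg2, are all negative and all in the comparison of tamoxifen+primidone with control, and none stays past the threshold with keratin scaling.

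Of the surface, sorting and polarity genes 0 of 6 passed in any comparison with TMM scaling, and all 6 were negative against both tamoxifen and control. With keratin scaling 2 of 6 were negative in each. The medians were then 0.07 against tamoxifen and 0.01 against control, beside 0.33 and 0.37 for all tested genes. Prom1, a protein of apical membrane protrusions, had 243, 473 and 346 CPM in the tamoxifen+primidone libraries, 778, 702 and 563 CPM in the tamoxifen libraries and 445, 477 and 439.7 CPM in the control libraries. All tamoxifen libraries were above all others, and the tamoxifen+primidone libraries spread widely and overlapped the control libraries. Its difference between tamoxifen+primidone and tamoxifen, -0.94 ± 0.21 (SE), was the most negative of the 40 there and did not pass (adjusted p = 0.13); with keratin scaling it was -0.66 ± 0.18 and passed (adjusted p = 0.0442), where 8.54% of all tested genes were called higher and 0.303% lower. Rab25, a small GTPase of apical recycling, had 104, 95 and 112 CPM in the tamoxifen+primidone libraries, 114, 111 and 129 CPM in the tamoxifen libraries and 124, 138 and 107 CPM in the control libraries. Its groups overlapped in every comparison, with -0.24 ± 0.11 (SE) against control (adjusted p = 0.212). Ap1m2, the epithelial subunit of a clathrin adaptor that sorts proteins to the basolateral membrane, came nearest to the threshold, at -0.33 ± 0.09 (SE; adjusted p = 0.0572), with all 3 libraries below all others. Cdcp1, a transmembrane Src substrate, Pard6b, a Par-complex subunit, and Crb3, a Crumbs protein, were at -0.37, -0.35 and -0.14 on the log2 scale against control, with adjusted p of 0.258, 0.169 and 0.516.

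Tamoxifen without primidone left 0 of the 40 past the threshold, but the ranges of its libraries and the control libraries were apart for 13: 7 lower (13.4% of all tested genes) and 6 higher (12.7%). The lower were Elf3, Grhl2, Ovol2, Esrp1, Cldn10, Ppl and Evpl, and the higher Ehf, Cdh1, Cldn4, Cldn7, Lsr and Prom1. These shares, 7 and 6 of 40, are near those of all genes on both sides. Between tamoxifen+primidone and control uteri the ranges were apart for 21, all lower, against 15.1% of all tested genes on that side, and between tamoxifen+primidone and tamoxifen for 20 lower and 1 higher, against 8.55% and 8.08%.

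Within groups the 40 genes differed in how tightly their libraries agreed. The coefficient of variation of CPM, pooled over the 3 groups, ran from 3.68% for Esrp1, 4.8% for Cldn4 and 5.22% for Elf3 to 43.5% for Ovol1 and 52.5% for Cldn8. The 5 genes past the threshold against control had values between 3.68% and 7.41%. Ovol2 and Dsc2, with more negative log2 fold changes against control than any of the 5, had 27.3% and 21.5%, and Prom1, with the most negative against tamoxifen, had 21.1%.

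Further epithelial genes from related lists were tested in the same fit. Of 20 other surface and sorting genes, 8 fell against control in tamoxifen+primidone uteri and 0 rose, beside 3.21% and 2.14% of all tested genes. The median log2 fold change of the 20 was -0.33. The 8 were Muc1, the apical mucin, Spint1, a protease inhibitor of epithelial membranes, Cd24a, Tmem30b, Ceacam1, Cblc, Map7 and Tmc4. Muc1 had 329, 508 and 428 CPM in the tamoxifen+primidone libraries, 571, 625 and 532 CPM in the tamoxifen libraries and 679.7, 652 and 698 CPM in the control libraries. Spint1 had 70.5, 67.3 and 75.5 CPM in the tamoxifen+primidone libraries, 96.5, 80.6 and 88.5 CPM in the tamoxifen libraries and 100.1, 105 and 104 CPM in the control libraries. In both genes all tamoxifen+primidone libraries were below all others, and the log2 fold changes were -0.68 ± 0.14 and -0.53 ± 0.08 (SE; adjusted p = 0.0255 and 0.0103). With keratin scaling 0 of the 20 were called lower and 2 higher, beside 1.06% and 29.4% of all tested genes.

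Of 15 other tight junction genes 2 fell against control with TMM scaling, Cldn2 and Arhgef18 (-0.37 ± 0.07; adjusted p = 0.0177), and 1 rose, the scaffold gene Mpdz (0.39 ± 0.08; adjusted p = 0.0239). The median of the 15 was 0.05, with 8 positive. With keratin scaling Cldn2 kept its call (-1.71 ± 0.43; adjusted p = 0.0205), Arhgef18 did not (-0.02 ± 0.13; adjusted p = 0.904), and 4 of the 15 were called higher and 1 lower. Among 13 polarity genes, with a median of 0.04 and 7 positive, 2 fell with TMM scaling, Llgl2 (-0.45 ± 0.10; adjusted p = 0.0292) and Lin7c (-0.51 ± 0.11; adjusted p = 0.0339). Both had keratin-scaled values that did not pass (-0.08 ± 0.15 and -0.16 ± 0.13), and 6 of the 13 were then called higher. Of 10 other adherens junction genes and 4 other desmosome genes, with medians of -0.10 and -0.14, 0 passed with TMM scaling, and 2 and 1 were called higher with keratin scaling. Of all tested genes, 3.21% were called lower and 2.14% higher with TMM scaling, and 1.06% and 29.4% with keratin scaling. The keratin-scaled counts of higher genes in these lists were near or below that last share, except for the polarity genes.

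Against tamoxifen 0 genes of these lists passed with TMM scaling. With keratin scaling Cldn2 was called lower (-1.79 ± 0.43; adjusted p = 0.0442), and Jam2 (0.67 ± 0.15; adjusted p = 0.0365) and Mpdz (0.68 ± 0.14; adjusted p = 0.0328) higher. In that comparison 0.303% of all tested genes were called lower and 8.54% higher with keratin scaling. Between tamoxifen and control 1 passed with TMM scaling, Jam2, a junctional adhesion molecule also made by endothelium, at -0.58 ± 0.09 (SE; adjusted p = 0.0236). With keratin scaling Jam2 was at -0.55 ± 0.15 and did not pass (adjusted p = 0.106), while Sdc1, a surface proteoglycan, was called higher (0.52 ± 0.12; adjusted p = 0.0461). Of all tested genes, 1.53% were called there with TMM scaling and 1.55% with keratin scaling.

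The 6 repressors of the epithelial program, Zeb1, Zeb2, Snai1, Snai2, Twist1 and Twist2, gave 0 calls in any comparison with TMM scaling. For tamoxifen+primidone against control 5 of the 6 log2 fold changes were positive, with a median of 0.26 beside 0.01 for all tested genes, and Snai2 was the exception at -0.33 ± 0.13 (SE; adjusted p = 0.144). Twist2 had 35.3, 33.3 and 34.7 CPM in the tamoxifen+primidone libraries, 21.2, 29 and 26.2 CPM in the tamoxifen libraries and 25.1, 28 and 19.7 CPM in the control libraries. All tamoxifen+primidone libraries were above all others, and the difference from control, 0.51 ± 0.15 (SE), had an adjusted p of 0.0714. Snai1 was at 0.75 ± 0.27 (adjusted p = 0.128). With keratin scaling, under which the median of all genes was 0.37 and 29.4% of them were called higher, 5 of the 6 were called higher. These factors are best known from mesenchymal cells, and whole tissue does not show which cells the reads came from.

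Markers of some other cells differed between groups as well, and their part in the results was not tested. Median log2 fold changes for tamoxifen against control were -0.62 (smooth muscle), 1.4 (mesothelium), 2.04 (adipocytes) and 1.23 (liver). For tamoxifen+primidone against tamoxifen they were -0.04, 0.03, 0.25 and 0.65. Between tamoxifen and control 4 liver and 1 mesothelium genes were called higher, beside 0.573% of all tested genes. The calls below are for tamoxifen+primidone against control, where 3.21% of all tested genes were lower and 2.14% higher. The 7 smooth muscle markers summed to 5582 to 6930 CPM in tamoxifen+primidone, 5949 to 7219 CPM in tamoxifen and 7281 to 11670 CPM in control libraries, with 2 of 7 lower against control (Myh11 and Actg2). The 7 liver genes were low but higher in 7 of 7 against control, at 184.9 to 185.7 CPM in tamoxifen+primidone, 90.3 to 178.7 CPM in tamoxifen and 49.2 to 56.9 CPM in control libraries. The 6 mesothelium markers summed to 133 to 163 CPM in tamoxifen+primidone, 94.9 to 151 CPM in tamoxifen and 72.2 to 90.0 CPM in control libraries, with 3 of 6 higher. The 5 adipocyte markers summed to 32.2 to 153 CPM in tamoxifen+primidone, 18.7 to 139 CPM in tamoxifen and 20.5 to 26.8 CPM in control libraries; all 5 log2 fold changes against control were positive, with a median of 2.13, and 0 passed. The 5 stratified squamous markers that could be tested gave 0 calls, and the 7 endothelium markers 0, with sums of 408 to 483 CPM in tamoxifen+primidone, 400.2 to 475 CPM in tamoxifen and 429.7 to 507 CPM in control libraries. The 6 endometrial stroma markers summed to 3125 to 4784 CPM in tamoxifen+primidone, 3577 to 4240 CPM in tamoxifen and 3220 to 4398 CPM in control libraries, with 1, Hand2, higher against control. Dcn weighs heavily in these sums, with a mean of 2569 CPM in tamoxifen+primidone libraries. The median log2 fold change of the 6 against control was 0.375, with 1 negative, beside 0.01 and 48.3% negative for all tested genes. Against tamoxifen it was 0.246, with 3 negative, beside 0.02 and 47.2%. No marker in these lists was at 0 in all 9 libraries.

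The uterine epithelium's estrogen-responsive luminal genes, 5 in the list, summed to 25100 to 41290 CPM in tamoxifen+primidone, 50240 to 59790 CPM in tamoxifen and 56640 to 59480 CPM in control libraries. Ltf, lactotransferrin, had 3730, 3492 and 4936 CPM in the tamoxifen+primidone libraries, 11160, 9338 and 7308 CPM in the tamoxifen libraries and 8273, 8554 and 8177 CPM in the control libraries. It fell by 1.04 ± 0.18 (SE) on the log2 scale against control (adjusted p = 0.0136), and with keratin scaling too, at -0.70 ± 0.19 (adjusted p = 0.0196). Sprr2f, with means of 1374, 2757 and 1250 CPM in the 3 groups in that order, was the 1 of 5 positive against control (0.14). It was called higher in tamoxifen than in control uteri (1.14, adjusted p = 0.0226). Against tamoxifen 0 of 5 passed with TMM scaling. With keratin scaling Ltf (-0.88 ± 0.19), Lcn2 (-1.16 ± 0.27) and Sprr2f (-0.72 ± 0.17) were called lower there, beside 0.303% of all tested genes. The 6 cell cycle genes ran from 64.4 to 207.7 CPM in tamoxifen+primidone, 60.4 to 70.5 CPM in tamoxifen and 177 to 241 CPM in control libraries. The 3 markers of luminal epithelium, Wnt7a, Lpar3 and Calb1, summed to 82.1 to 102.6 CPM in tamoxifen+primidone, 72.3 to 92.3 CPM in tamoxifen and 38.7 to 78.2 CPM in control libraries, with 0 of 3 called. For glands, Foxa2 had 13.2, 15.8 and 11.5 CPM in the tamoxifen+primidone libraries, 8.22, 13.1 and 13.5 CPM in the tamoxifen libraries and 9.62, 8.54 and 7.15 CPM in the control libraries, and Cxcl15 was at most 1.4 CPM. Ovgp1, an oviduct gene, had 0.982, 0.684 and 0.906 CPM in tamoxifen+primidone, 267, 61.9 and 124 CPM in tamoxifen and 1.18, 36.5 and 13.4 CPM in control libraries. How far these differences bear on the 40 genes was not tested.

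Library totals ran from 36393120 to 39958443 counts, and the TMM factors were 1.02 to 1.05 in tamoxifen+primidone, 0.975 to 0.996 in tamoxifen and 0.970 to 0.997 in control libraries. Across all genes 325 were higher and 487 lower in tamoxifen+primidone than in control uteri, a split that became 431 and 400 with upper-quartile scaling and 653 and 331 with limma on log2(FPKM + 1), while the members called stayed all lower under both. The description gives 3 mice per group, but no label ties a library to a mouse, so the p-values measure the spread between these samples. Leaving out any control library, or tamoxifen+primidone library 2, left Elf3 as the only call of the 40 against control, while the share of all tested genes called was 0.794% to 2.36%, against 5.35% with all libraries. The count was 7 without tamoxifen library 2, beside 5.2% of all tested genes. It was 3 without tamoxifen library 1 or tamoxifen+primidone library 1, beside 3.8% and 3.83%. Elf3 passed in 18 of 19 alternative settings, Esrp1 and Dsg2 in 13, Marveld3 in 8 and Cldn4 in 3.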

How the data were processed

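Whole-uterus RNA was sequenced from 3 libraries of each group, mapped to groups by sample titles. What the authors deposited for each gene is a raw whole-number count of reads and an FPKM value, which is scaled for sequencing depth and gene length. The submitters' processing notes name build GRCm39, HTSeq, HISAT2, DESeq2 and R 3.2.0. The annotation and the strandedness of counting were not given in the sources used here, so reads of overlapping or antisense genes cannot be told apart. Replicates differed far beyond counting noise (chi-square per degree of freedom of 19.6 to 78.5), and none was treated as a duplicate.

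Counts were tested in R 4.3.3 with edgeR 4.0.16 (quasi-likelihood F test), with TMM scaling, filterByExpr by group as low-count filter and robust dispersions, in a fit of all 9 libraries with a coefficient per group. P-values are two-sided, adjusted by Benjamini-Hochberg over 15186 genes, with a threshold of 0.05. CPM are per 1000000 of TMM-scaled library size. The SE is approximate, taken from the log2 fold change and its F statistic. Alternatives were other scalings, 4 keratins as scale, no filter, DESeq2 1.42.0, limma 3.58.1 on log2(FPKM + 1) and log2(FPKM + 0.1) of genes with a mean of at least 0.5 FPKM or of all genes, a replicate block, and leaving out libraries. The fit was also run on simulated counts drawn from its own dispersion estimates. The outcome is not given here and does not bear on the choice of scaling.

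The genes and lists were chosen with earlier results of these data known. Given with every library were genes past the threshold in any test, the 5 with the smallest p in each comparison and 15 named at the outset; the others are given by range and count, as are lists beyond their genes past the threshold and up to 4 with the smallest p. Range overlap compares 3 libraries with 3. Sequences are RefSeq promoter windows of GRCm38.p6, matched by symbol; its coordinates were used for nothing else. No p-value was computed for the motif shares. The list of other transcription factors is not reported here.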

Additional observations from a re-analysis of the deposited data

How the results depend on the processing

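Elf3, Esrp1, Cldn4, Marveld3 and Dsg2 stayed negative against control in all settings tried but keratin scaling, where Esrp1 and Cldn4 turned positive. The causes were not tested. Of the 40 genes, the count called was 0 for tamoxifen against control, 0 for tamoxifen+primidone against tamoxifen, 5 for tamoxifen+primidone against control and 5 for any difference. In that order, DESeq2 gave 3, 9, 12 and 17, beside 6.15%, 3.22%, 10.4% and 12.7% of all genes, and keratin scaling 0, 1, 1 and 3, beside 1.55%, 8.84%, 30.4% and 26.3%. Upper-quartile scaling gave 3 for any difference, beside 3.54% of all genes. Without the low-count filter tamoxifen against control gave 1, beside 1.42% of all genes, and with the 6 libraries of the groups compared 3, beside 3.67%. Limma on log2(FPKM + 1) and on log2(FPKM + 0.1) both gave 3 against control and 2 for any difference. Of all genes they called 7.49% and 7.35% against control, and 4.15% and 4.18% for any difference. The member counts are near those shares. Without a filter limma gave 2 and 1, beside 3.87% and 1.81% of all genes. Leaving out each library in turn gave 0 to 2, 0 to 0, 1 to 7 and 0 to 5. The shares of all genes ran from 0.143% to 2.86%, 0% to 0.554%, 0.794% to 5.2% and 0.384% to 4.33%. The labels do not say whether replicate numbers pair the libraries. Correlations of same-numbered libraries ran from -0.151 to 0.227, and those of differently numbered libraries from -0.334 to 0.182. With 3 libraries a group these overlapping ranges cannot decide it. A replicate block gave 1 for tamoxifen+primidone against tamoxifen, Dsc2, and 5 against control, with Dsc2 in place of Cldn4. Of all genes it called 0.349% and 6.48%.

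Single values of the genes given by library changed sign in 42 of 1197 alternatives. Keratin scaling turned these positive against control: Cdh1 (0.131), Cldn10 (0.0924), Cldn3 (0.0447), Cldn4 (0.0383), Dsp (0.0336), Ehf (0.248), Esrp1 (0.00868), Evpl (0.0078), Grhl2 (0.195), Jup (0.0482), Lsr (0.222), Ocln (0.185), Rab25 (0.107) and Tjp1 (0.266). Against tamoxifen it did so for Dsg2 (0.0421), Dsp (0.166), Esrp1 (0.164), Jup (0.137), Lsr (0.0163), Ocln (0.173), Rab25 (0.134) and Tjp1 (0.276), and for Ocln between tamoxifen and control (0.0125). Tjp1 against tamoxifen was at 0.025, 0.0263 and 0.025 with the FPKM fits. Leaving out a library turned Cldn7 (-0.0747 to 0.129) and Ocln (-0.293 to 0.00827) against control; Evpl (-0.095 to 0.212), Grhl2 (-0.00892 to 0.101), Ovol2 (-0.308 to 0.271) and Tjp1 (-0.111 to 0.0219) against tamoxifen; and Epcam (-0.0309 to 0.166), Ocln (-0.139 to 0.165), Rab25 (-0.15 to 0.0395) and Tjp1 (-0.118 to 0.00245) between tamoxifen and control. None of these values was past the threshold before, except Cldn4 and Esrp1 against control. Few reads limit Cldn1, Cldn8, Grhl1 and Ovol1, with 49 to 550 counts per library.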
